A study of Mus musculus with 32 samples.

Results

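The acute response of mRNA levels to ER stress was measured in mouse embryonic fibroblasts (MEFs), cultured connective tissue cells, after 1 h of thapsigargin and at 0 h. Thapsigargin inhibits SERCA, which pumps calcium into the endoplasmic reticulum (ER), so that the store runs empty. The comparison uses 8 of the 32 libraries of the study, 4 of cells after 1 h of thapsigargin (replicates 1 to 4) and 4 untreated controls (0 h, replicates 1 to 4), all of cytosolic RNA. The other libraries hold cytosolic RNA after 16 h, with or without an inhibitor of the ER kinase PERK for the last 4 h, and polysome RNA (mRNAs on more than 4 ribosomes) of all 4 conditions. The other cytosolic libraries share the fit, and so the estimate of spread behind each test and p-value. Apart from this, the other libraries enter only where a later course or a polysome value is given. No source used here gives the strain, the passage or the dose of thapsigargin, or says whether controls received a solvent. Nor is it stated that the 4 replicates were separate cultures, and the p-values may then rest on technical spread alone.

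The ER folds secreted and membrane proteins with the help of calcium-binding chaperones. When its calcium is lost, 3 sensors in its membrane (PERK, IRE1 and ATF6) start the unfolded protein response (UPR): PERK phosphorylates the translation factor eIF2, which slows most protein synthesis and favours the mRNA of the transcription factor ATF4, IRE1 splices the mRNA of XBP1 and can cut other mRNAs at the ER membrane, and ATF6 is released by proteases in the Golgi. Calcium that reaches the cytosol also activates kinases and the phosphatase calcineurin, which act on the transcription factors CREB, SRF and NFAT and so on immediate early genes. The mRNAs of secreted and membrane proteins are brought to the ER by the signal recognition particle while they are being translated, and the others are translated in the cytosol.

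Of 20234 genes in the deposited count table, 12366 had enough counts to be tested in cytosolic RNA. A gene was called when edgeR's quasi-likelihood test gave a Benjamini-Hochberg adjusted p under 0.05 over all tested genes. At 1 h 56.2% of the tested genes were called, 28.1% as higher and 28.1% as lower, and the counts of list members below are to be read against these shares. Genes called and changed at least 2-fold were 2.09% on the higher side and 2.6% on the lower side. The 2 groups did not overlap in 49.7% of tested genes. Levels are CPM, read counts scaled to the TMM size of their library, and changes are log2 differences, 1 h minus control, with the standard error (SE) of the fit. Scaling sets each mRNA against the rest of its extract, and a lower level in the cells and a lower recovery in the cytosolic extract cannot be told apart. Libraries held 19.32 to 34.76 M counts at 1 h and 28.28 to 31.98 M in controls.

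Control replicate 1 stood apart from the other libraries by low counts of GC-rich genes. Over genes with more than 56% GC in their transcripts, its median log2 deviation from the 8-library mean was -0.535, while the other 3 controls lay between -0.0853 and 0.145 and the 4 libraries at 1 h between -0.000571 and 0.278. For genes above this GC content whose fold or log2 change is printed below, the value without this library, after a correction for GC content, or both stand beside it. The correction was added after this was seen. The summed level of fibroblast markers was high in all libraries, at 19810 to 24300 CPM at 1 h and 9032 to 12820 CPM in controls. The rising collagens and fibronectin are a large part of it: Fn1 and Col1a1 averaged 6890 and 5649 CPM at 1 h and 2237 and 2302 CPM in controls. Of the 10 fibroblast markers 1 averaged under 1 CPM over the 8 libraries. Markers of other cell types were far lower, and some moved. Neural markers summed to 55.8 to 59.3 CPM at 1 h and 50.4 to 57.4 CPM in controls, nearly all of it Map2. Muscle markers summed to 18.6 to 26.0 CPM at 1 h and 7.28 to 11.9 CPM in controls, mostly Acta1 (skeletal actin), which was called higher (log2 1.14 ± 0.19, or 0.99 without control replicate 1). Macrophage markers summed to 3.60 to 4.53 CPM at 1 h and 6.08 to 7.82 CPM in controls, with Lyz2, Csf1r and Cd68 called lower (log2 -1.07 ± 0.17, -0.77 ± 0.21 and -0.60 ± 0.25). The call of Cd68 was lost in 10 alternatives, among them leaving out 1 h replicate 2, 3 or 4 or control replicate 2, 3 or 4 (log2 -0.44 to -0.61; edgeR, adjusted p = 0.0654 to 0.144). Epithelial markers summed to 2.17 to 2.96 CPM at 1 h and 0.672 to 1.29 CPM in controls, with Krt19 called higher (log2 1.42 ± 0.28, or 1.23 without control replicate 1). Adipocyte and endothelial markers each stayed under 4 CPM in sum, and of the 7 endothelial markers each averaged under 1 CPM. At 0 in all 8 libraries were Fcgr1 (macrophage), Krt5 (epithelial), Myog and Myf5 (muscle), Sox10 and Nefl (neural) and Plin1 and Lep (adipocyte). The part of other cells in the results was not tested.

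Promoters of 3 genes are shown because they carry the best known response elements of the signals this drug sets off and belong to genes that rose at 1 h: Hspa5 (the ER chaperone BiP), Dusp1 (a phosphatase that switches off MAP kinases) and Zfp36 (tristetraprolin, which brings mRNAs with AU-rich elements to decay). They are RefSeq promoters on GRCm38.p6, from 250 bases before to 50 bases after the gene's start, printed 5′ to 3′ on the gene's strand, and capitals mark motif matches. In Hspa5 (chr2:34771840-34772139, plus strand) these are an AP-1 site that begins 182 bases before the start and an ER stress element, CCAAT and CCACG with 9 bases between them, that begins 65 bases before it. In Dusp1 (chr17:26508423-26508722, minus strand) they are a full CRE (TGACGTCA, the CREB site) and an E-box, and in Zfp36 (chr7:28379179-28379478, minus strand) a CArG box, the SRF site.
Hspa5: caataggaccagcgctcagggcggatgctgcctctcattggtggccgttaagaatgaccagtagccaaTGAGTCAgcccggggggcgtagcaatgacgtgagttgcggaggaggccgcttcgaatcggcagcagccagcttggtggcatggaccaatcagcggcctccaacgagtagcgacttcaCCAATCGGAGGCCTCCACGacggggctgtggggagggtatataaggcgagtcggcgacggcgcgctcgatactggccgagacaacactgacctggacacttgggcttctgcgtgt
Dusp1: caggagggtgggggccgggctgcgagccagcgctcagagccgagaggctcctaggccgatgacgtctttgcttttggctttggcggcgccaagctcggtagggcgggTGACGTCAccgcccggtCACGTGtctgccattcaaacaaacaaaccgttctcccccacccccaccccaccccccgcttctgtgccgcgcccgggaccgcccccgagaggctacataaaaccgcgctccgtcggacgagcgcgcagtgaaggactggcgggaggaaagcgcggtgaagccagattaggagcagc
Zfp36: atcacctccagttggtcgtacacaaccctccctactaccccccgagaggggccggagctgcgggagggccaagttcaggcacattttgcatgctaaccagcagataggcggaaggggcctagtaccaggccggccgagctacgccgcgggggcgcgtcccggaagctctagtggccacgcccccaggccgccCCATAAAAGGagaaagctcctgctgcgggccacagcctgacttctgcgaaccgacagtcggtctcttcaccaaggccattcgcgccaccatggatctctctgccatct

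These genes moved as follows. Hspa5 stood at 3090, 3150, 2908 and 3112 CPM at 1 h, against 1103, 928.2, 973.9 and 1002 CPM in controls. Dusp1 stood at 149.3, 151.3, 148.3 and 141.0 CPM at 1 h, against 29.4, 29.3, 29.9 and 31.2 CPM in controls. Zfp36 stood at 152.5, 121.5, 156.3 and 137.4 CPM at 1 h, against 30.3, 42.8, 35.4 and 34.3 CPM in controls. In none of the 3 did the groups overlap, and the rise was 3.06-fold for Hspa5 (log2 1.61 ± 0.060, SE; edgeR, adjusted p = 2.9e-12), 4.92-fold for Dusp1 (log2 2.30 ± 0.046; edgeR, adjusted p = 2.8e-15) and 3.97-fold for Zfp36 (log2 1.99 ± 0.13; edgeR, adjusted p = 3.7e-09). The share of promoters with a motif, counted on either strand and without a test, was as follows. The full CRE was in 3.55% of the 197 promoters of genes at least 2-fold higher, in 1.67% of the 240 of genes at least 2-fold lower and in 3.35% of all 9485 promoters of tested genes. The CArG box was in 2.54%, 0.833% and 1.39% of these promoters, the E-box CACGTG in 15.2%, 10% and 10.2%, and the AP-1 site TGACTCA in 5.08%, 7.5% and 3.52%. The ER stress element was in 0.508% (Hspa5 alone), 0% and 0.169%. The set of genes at least 2-fold higher shrank from 259 to 184 without control replicate 1, and motifs were not recounted in the smaller set.

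Among the sensors and direct regulators of the UPR, most mRNAs were lower at 1 h, and Atf4 and Ppp1r15a were among the few that rose. Of this list 5 called higher and 13 called lower of 22 tested, with a median log2 change of -0.21 against 0.003 over all tested genes. The mRNAs of all 3 sensors fell slightly. Ern1 (IRE1) stood at 44.4, 40.4, 43.1 and 39 CPM at 1 h, against 46.1, 47.1, 49.3 and 48.6 CPM in controls. Eif2ak3 (PERK) stood at 58.2, 58.6, 57.4 and 53.5 CPM at 1 h, against 67.6, 64.6, 69.5 and 65.2 CPM in controls. Atf6 ranged over 105.1 to 111.6 CPM at 1 h, against 118.1 to 136.5 CPM in controls. In all 3 every library at 1 h lay below every control, though the changes were small: log2 -0.20 ± 0.064 for Ern1 (edgeR, adjusted p = 0.0155), -0.23 ± 0.045 for Eif2ak3 (adjusted p = 0.00037) and -0.22 ± 0.060 for Atf6 (adjusted p = 0.00422). Without 1 h replicate 4 the call of Ern1 was lost (log2 -0.15; edgeR, adjusted p = 0.0732). The proteases that cut ATF6 in the Golgi fell further, Mbtps1 (site-1) by 1.5-fold and Mbtps2 (site-2) by 1.69-fold, as did Creb3 and Creb3l1, membrane-bound factors cut by the same proteases (log2 -0.80 ± 0.052 and -0.64 ± 0.14, the second -0.76 without control replicate 1 and -0.90 after GC correction). Their relative Creb3l2 fell no more than the sensors (log2 -0.19 ± 0.048), and Atf6b, the paralogue of Atf6, did not pass the test (log2 0.22 ± 0.24, or 0.02 without control replicate 1 and -0.08 after GC correction; edgeR, adjusted p = 0.457).

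The 2 regulatory subunits that lead the phosphatase PP1 to eIF2 moved in opposite directions. Ppp1r15a (GADD34, the stress-induced subunit) ranged over 111.3 to 140.3 CPM at 1 h, against 65.4 to 77.9 CPM in controls. Ppp1r15b (CReP, the constitutive subunit) stood at 271.9, 293.2, 274.2 and 282.9 CPM at 1 h, against 558.8, 473.3, 491.3 and 489.3 CPM in controls. The groups overlapped in neither, and the changes were log2 0.78 ± 0.071 for Ppp1r15a (edgeR, adjusted p = 7.3e-08) and -0.84 ± 0.065 for Ppp1r15b (adjusted p = 8.7e-09). Atf4 rose by log2 0.51 ± 0.033 (edgeR, adjusted p = 1.1e-09). Xbp1, whose mRNA IRE1 splices, had 163.4, 169.8, 168.6 and 180.8 CPM at 1 h and 178.9, 151.7, 159.3 and 160.9 CPM in controls, overlapping groups that did not pass the test (edgeR, adjusted p = 0.271; 0.0388 with a log2 change of 0.12 without control replicate 1). The counts do not tell its spliced from its unspliced form. Eif2ak1, the eIF2 kinase of haem shortage, fell (log2 -0.41 ± 0.055), Eif2ak4 (GCN2, the kinase of amino acid shortage) rose slightly (log2 0.16 ± 0.045), and Eif2ak2 (PKR) did not pass the test (log2 0.07 ± 0.076; edgeR, adjusted p = 0.423), though it did after GC correction (log2 0.16, adjusted p = 0.00072).

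The chaperone and ER-associated degradation genes that ATF6 and XBP1 induce were split at this time: 7 called higher and 13 called lower of 29 tested, with a median log2 change of -0.06. Beside Hspa5, Herpud1 (a membrane protein of ER-associated degradation) rose 2.13-fold, with 814.6, 775.8, 810.4 and 776.7 CPM at 1 h and 348.5, 379.8, 380.1 and 385.2 CPM in controls, and Hsp90b1 (GRP94, the ER HSP90) rose by log2 0.64 ± 0.072. On the lower side were the mannosidase-like proteins that mark misfolded glycoproteins for disposal, Edem1 and Edem2, and Derl1, a part of the retrotranslocation channel. Edem1 stood at 158.7, 176.4, 162.7 and 172.0 CPM at 1 h, against 370.1, 301.8, 319.2 and 328.8 CPM in controls, a 1.97-fold fall (edgeR, adjusted p = 2.1e-09). At 16 h Edem1 was above both, with 530.7 ± 40.9 CPM (SD, n = 4), and log2 1.66 above 1 h (edgeR, adjusted p = 6e-13); across the 16 h against 1 h comparison 75.3% of tested genes were called.

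Genes of calcium handling in the ER store were mostly lower. Of this list 3 called higher and 13 called lower of 21 tested, with a median log2 change of -0.44. Atp2a2 (SERCA2), the pump that thapsigargin blocks, stood at 598.1, 631.9, 645.2 and 656.2 CPM at 1 h, against 766.6, 668.7, 702.9 and 720.2 CPM in controls, a small fall without overlap (log2 -0.18 ± 0.054; edgeR, adjusted p = 0.011). Stim2, a sensor of store calcium that opens entry channels, stood at 38.9, 37.4, 36.4 and 40.2 CPM at 1 h, against 93.4, 88.6, 84.5 and 84.2 CPM in controls, a 2.29-fold fall (edgeR, adjusted p = 1.2e-11). Its relative Stim1 fell less, by log2 -0.26 ± 0.062. Rcn1, a calcium-binding protein of the ER lumen, and Tmco1, a membrane protein of the ER, fell by 2.14-fold and 1.99-fold. The 3 that rose were the release channels Itpr1, Itpr2 and Itpr3 (log2 0.17 ± 0.052, 0.21 ± 0.058 and 0.79 ± 0.14), which encode some of the longest proteins of the list; Itpr3 is GC-rich and kept log2 0.67 without control replicate 1 and 0.62 after GC correction.

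A list of calcineurin pathway genes showed 1 large rise, and lists of CREB and SRF targets showed many. The first list holds mostly parts of the pathway and the others target genes, so their counts do not rank the branches. Rcan1, an inhibitor of calcineurin and a target of NFAT, stood at 144.0, 153.0, 157.5 and 158.6 CPM at 1 h, against 47.8, 47.1, 46.2 and 47.3 CPM in controls, a 3.25-fold rise without overlap (log2 1.70 ± 0.046; edgeR, adjusted p = 8e-14). Nfatc1, also known as an NFAT target, rose by log2 0.69 ± 0.065. That list as a whole (calcineurin subunits, calmodulins, NFAT factors) had 3 called higher and 6 called lower of 19 tested and a median log2 change of -0.04; 3 were called lower when control replicate 1, or 1 h replicate 3 or 4, was left out. Of CREB targets 18 called higher and 5 called lower of 27 tested (median log2 0.91), and of the early SRF targets 18 called higher and 1 called lower of 20 tested (median log2 1.17); the lists share genes such as Fos, Egr1, Fosb, Klf4 and Btg2. The early lists were not uniform: Hes1, a repressor that also answers Notch, stood at 5.75, 5.6, 5.54 and 5.69 CPM at 1 h and 11.9, 12.9, 11.2 and 10.5 CPM in controls, a 2.06-fold fall (edgeR, adjusted p = 2.7e-08), and Klf10 fell by log2 -0.45 ± 0.055.

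Genes with the largest changes are shown by library in the plot of extremes. After Ier2, Fos, Txnip and Ddit3, the highest were Egr2, an immediate early zinc finger factor, Rgs16, which speeds the GTPase of G proteins, Chac1, which breaks down glutathione, Dusp1, Egr1, Ddit4 (REDD1, an inhibitor of mTORC1), Edn1 (the peptide endothelin 1) and Myc. Egr2 stood at 225.6, 203.4, 215.8 and 209.9 CPM at 1 h, against 29.4, 38, 32.9 and 35.4 CPM in controls, a 6.3-fold rise. Rgs16 stood at 11.8, 11.1, 11.2 and 11.4 CPM at 1 h, against 1.83, 1.91, 2.22 and 1.82 CPM in controls, a 5.86-fold rise. Edn1 stood at 43.4, 45.3, 47.6 and 48.4 CPM at 1 h, against 11.4, 9.8, 10.2 and 11.7 CPM in controls, a 4.27-fold rise. The spread within groups was small against these differences, and all 3 passed the test (edgeR, adjusted p = 1.4e-13 for Egr2, 2.2e-11 for Rgs16 and 5e-12 for Edn1). Ier2 was the exception in spread, with 1470, 735.8, 1075 and 927.4 CPM at 1 h and 59.9, 192.8, 128.8 and 116.9 CPM in controls; it is GC-rich, and its log2 change of 3.08 ± 0.38 was 2.85 without control replicate 1 and 2.79 after GC correction.

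**Figure D1:**
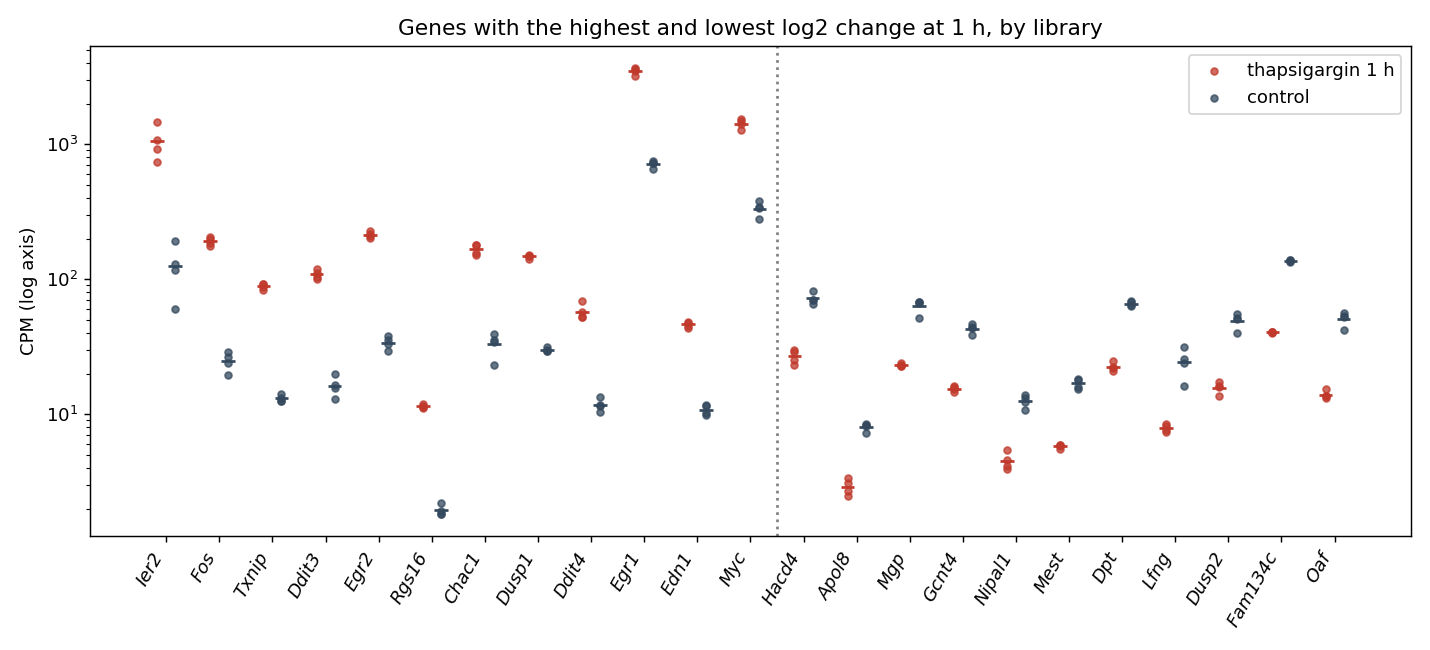
CPM on a log axis for the 12 highest and 11 of the lowest genes by log2 change, among called genes of at least 5 CPM without overlap of the groups; each point is 1 library, bars are means of 4, 1 h in red at the left of control in dark blue. All libraries at 1 h lie on one side of all controls in each gene, which the choice of genes required.

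At the low end, most of the genes encode secreted or membrane proteins. Oaf, Fam134c, Dusp2 and Lfng were followed by Dpt (dermatopontin, a matrix protein), Mest (an ER membrane hydrolase from an imprinted gene), Nipal1 (a magnesium transporter of the membrane), Gcnt4 (a Golgi glycosyltransferase), Mgp (matrix Gla protein, which limits calcification), Apol8 and Hacd4 (an ER enzyme of fatty acid elongation). Dpt stood at 21.1, 24.8, 21.9 and 22.5 CPM at 1 h, against 68.5, 63.1, 64 and 68.3 CPM in controls, a 2.92-fold fall (edgeR, adjusted p = 9e-11). Mgp stood at 22.8, 23.8, 22.8 and 23.2 CPM at 1 h, against 51.8, 67.9, 66.2 and 68.1 CPM in controls, a 2.74-fold fall (edgeR, adjusted p = 8e-10). In both genes all libraries at 1 h lay below all controls, and at 1 h the 4 libraries were close to each other. The most abundant genes that fell at least 2-fold were Tmem123 (a membrane mucin-like protein), Timp2 (an inhibitor of matrix metalloproteases), Ssr3 (a subunit of the translocon-associated complex), Mlec (malectin, an ER lectin) and Emp1 (a membrane protein with several spans). Tmem123 alone had 1065, 1153, 1051 and 1158 CPM at 1 h and 3163, 2477, 2715 and 2728 CPM in controls.

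A fall was more common among mRNAs whose proteins hold a hydrophobic stretch, a coarse mark of entry into the ER, than among others. Each gene's longest protein in GENCODE was searched for a hydrophobic stretch, a window of 19 residues with a mean Kyte-Doolittle hydropathy of at least 1.6, which most membrane spans and many signal peptides reach. Of 4017 tested genes with such a stretch 665 (16.55%) were called higher and 1870 (46.55%) lower, with a median log2 change of -0.27. Of 7924 genes without one 2719 (34.31%) were called higher and 1474 (18.6%) lower, with a median of 0.09. Of the 310 genes with a protein model that fell at least 2-fold, 263 had a stretch and 47 had none. Of the 257 that rose at least 2-fold, 61 had a stretch and 196 had none. The genes that rose this far were GC-rich, with a median of 57.21% against 50.47% over all tested genes. Of all tested genes 259 rose at least 2-fold, but 184 without control replicate 1 and 186 after GC correction. The split by stretch was not recounted in these smaller sets. The rule is coarse in both directions: it misses short signal peptides (Dpt, Edn1 and Fn1, all secreted, have no such window) and takes in some cytosolic proteins such as Eef2. It also takes in membrane proteins of mitochondria, such as Ndufb5 of the respiratory chain, which fell by log2 -1.03 ± 0.054.

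The fall was graded by protein length. With a stretch, the median log2 change was -0.68 for proteins of up to 200 residues (359 genes), -0.54 above 200 and up to 400 (1106 genes), -0.33 above 400 and up to 600 (887 genes), -0.10 above 600 and up to 1000 (944 genes) and 0.17 above 1000 residues (721 genes). Without a stretch the same bins ran -0.13, 0.03, 0.14, 0.22 and 0.26, so that the 2 classes lay far apart in the shortest bin and close together in the longest. In the shortest bin with a stretch 246 of 359 genes (68.52%) were called lower and 10 (2.786%) higher, while above 1000 residues 108 of 721 (14.98%) were called lower and 311 (43.13%) higher. Proteins whose stretch begins only within the first 60 residues had medians of -0.56, -0.57, -0.35, -0.18 and 0.35 over these bins, so that their shortest bin was not the lowest. This class holds secreted proteins but also membrane proteins, such as the Golgi enzymes Mgat2 and Ext1 and the proton pump subunit Atp6v0e. Proteins with a later stretch, as in many membrane proteins, are shown beside them in the plot by class and length.

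**Figure D2:**
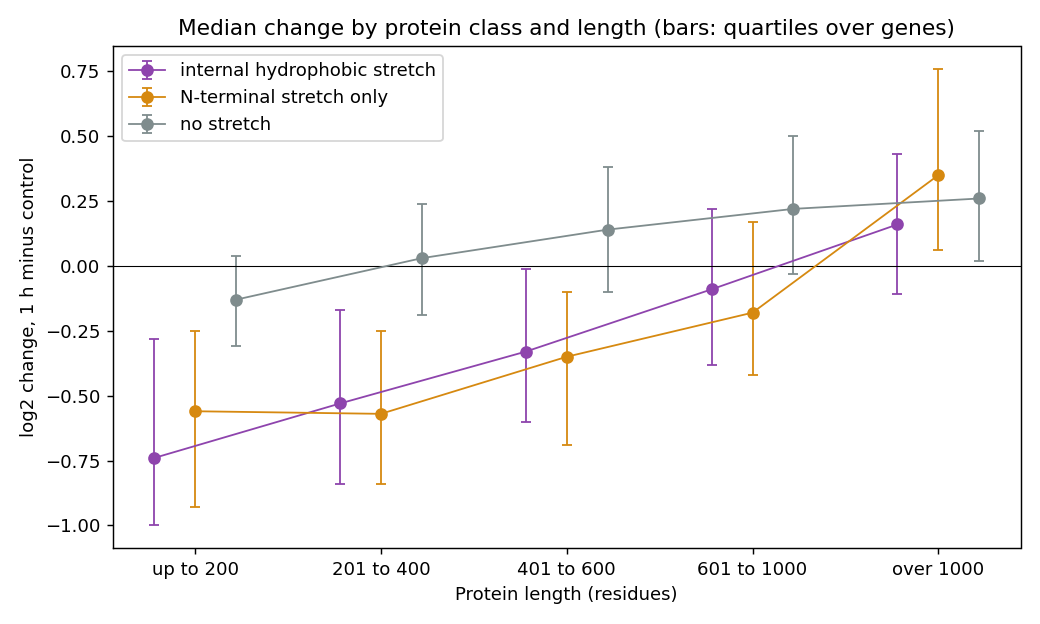
Median log2 change (1 h minus control) against protein length in residues, for genes with an internal hydrophobic stretch, with one only near the N terminus and with none; bars span the quartiles over genes, not an error. The shortest proteins with an internal stretch have a median of -0.74, the shortest with none -0.13, and above 1000 residues all 3 medians are above 0.

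The same order was seen in each library. For genes with a stretch and up to 200 residues the median log2 deviation from the 8-library mean was -0.27, -0.31, -0.27 and -0.31 at 1 h, against 0.28, 0.31, 0.31 and 0.31 in controls. For genes without a stretch in the bin above 200 and up to 400 residues it was 0.02, 0.01, 0.01 and 0.02 at 1 h, against 0.03, -0.01, -0.01 and -0.01 in controls. The first class separated all libraries of one group from all of the other, and the second did not. Genes without a stretch and of up to 200 residues also separated them, by less. Their medians were -0.07, -0.06, -0.09 and -0.07 at 1 h, against 0.1, 0.05, 0.08 and 0.07 in controls. Without a stretch, the bins above 400 residues separated the groups in the other direction. The split was as large under other treatments of GC content: after GC correction the median over all genes with a stretch was -0.28 and without control replicate 1 it was -0.27. Within genes of 48 to 54% GC the medians were -0.33 with a stretch (1331 genes) and 0.07 without (2500 genes). It was seen in rare and in abundant mRNAs, with medians of -0.32, -0.20 and -0.29 for genes with a stretch under 5 CPM, at 5 to 50 CPM and over 50 CPM. In polysome RNA of the same samples the median at 1 h was -0.34 with a stretch and 0.18 without.

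**Figure D3:**
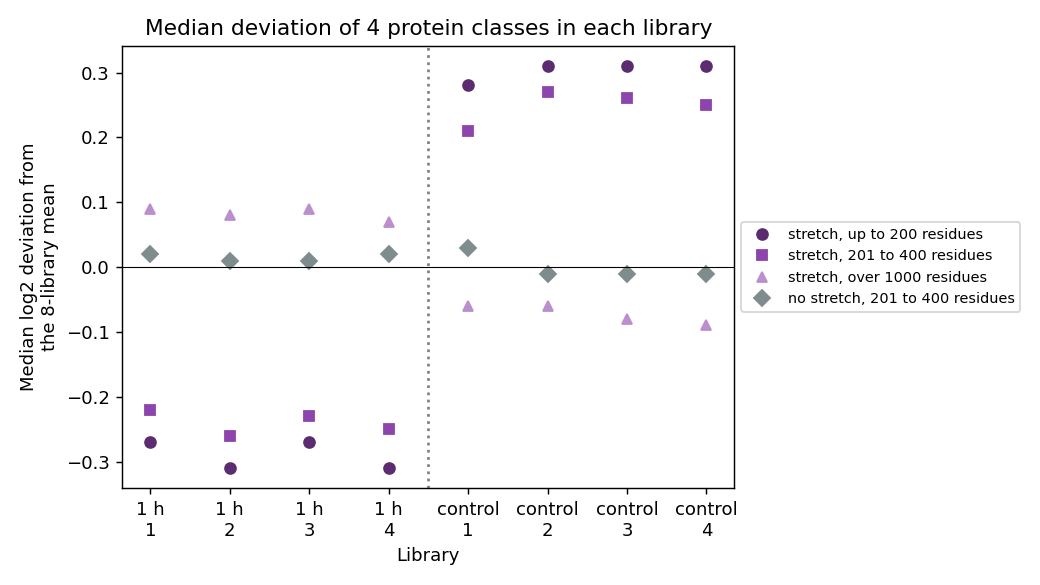
Median log2 deviation from the mean of the 8 libraries, on log2(CPM + 0.5), for 4 classes of genes in each library, 1 h at the left and control at the right; each point is 1 library. Genes with a hydrophobic stretch and up to 200 residues lie at -0.27 to -0.31 at 1 h and at 0.28 to 0.31 in controls.

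Lists of secretory pathway genes allowed membrane and cytosolic parts of the same machinery to be compared, though such parts can also differ in protein length. Golgi glycosyltransferases and sulfotransferases, single-span enzymes that build sugar chains, had 0 called higher and 32 called lower of 34 tested and a median log2 change of -0.67. Mgat2, which starts the branching of complex N-glycans, stood at 61.8, 63.8, 56.6 and 60.2 CPM at 1 h, against 151.6, 131.4, 137.6 and 134.6 CPM in controls, a 2.29-fold fall without overlap (edgeR, adjusted p = 1.3e-10). The Slc35 carriers, which bring nucleotide sugars into the Golgi and ER, had 0 called higher and 19 called lower of 20 tested (median -0.74), led by Slc35b4, with 83.6, 88.9, 89.8 and 95.4 CPM at 1 h and 242.7, 197.7, 208.3 and 206.2 CPM in controls. The Slc25 carriers, which also have several spans but go to mitochondria, had 5 called higher and 19 called lower of 41 tested (median -0.17). These carriers too were thus called lower more often than higher, with a median nearer to that of all tested genes. Among them Slc25a25, an ATP and phosphate carrier regulated by calcium, rose 2.08-fold (log2 1.05 ± 0.084, or 0.93 after GC correction; edgeR, adjusted p = 1.4e-08), and Slc25a5, an ADP and ATP carrier, rose by log2 0.41 ± 0.038. Tetraspanins had 0 called higher and 17 called lower of 19 tested (median -0.86), among them Cd63 with 493.2, 526.3, 506.3 and 515.6 CPM at 1 h and 974.8, 879.8, 914.0 and 949.2 CPM in controls. Of genes named Tmem, 1 called higher and 130 called lower of 170 tested (median -0.63), with 3 called higher without control replicate 2. Enzymes that make and attach GPI anchors had 1 called higher and 17 called lower of 25 tested (median -0.41).

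In transport between ER and Golgi, the membrane cargo receptors and SNAREs had 2 called higher and 25 called lower of 30 tested (median -0.73; 1 called higher without 1 h replicate 4 or control replicate 2, 3 or 4), while the coat subunits that assemble on the membrane from the cytosol, with their GTPases, had 15 called higher and 5 called lower of 22 tested (median 0.38). The receptors and SNAREs had a median length of 241 residues and the coat genes of 819 residues. The parts of place and of length in this contrast were not tested. Tmed10, a cargo receptor of the p24 family, stood at 163.8, 159.1, 165.7 and 163.3 CPM at 1 h, against 349.1, 302.5, 321.6 and 319.9 CPM in controls. Sec31a, of the outer COPII coat, stood at 404.1, 386.2, 404.5 and 385.1 CPM at 1 h, against 192.9, 211.1, 213.0 and 211.0 CPM in controls. The first fell by 1.98-fold and the second rose by 1.91-fold, both without overlap (edgeR, adjusted p = 9.7e-12 for Tmed10 and 1.1e-11 for Sec31a). Of the 5 coat genes that fell, 4 encode the small GTPases Sar1a, Sar1b, Arf1 and Arf4 (log2 -0.93, -1.06, -0.65 and -0.74), short cytosolic proteins without a stretch; Sar1b has 198 residues.

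Other machines with parts on both sides gave smaller or mixed contrasts. Oligosaccharyltransferase, which adds N-glycans in the ER, had 0 called higher and 11 called lower of 12 tested (median -0.52). Its small membrane subunit Dad1 stood at 67.7, 67, 71 and 67.2 CPM at 1 h, against 158.0, 161.0, 166.3 and 172.8 CPM in controls, a 2.41-fold fall (edgeR, adjusted p = 3.2e-12). Its catalytic subunit Stt3a, a far longer protein, had 675.4, 739.3, 700.5 and 744.7 CPM at 1 h and 778.0, 597.9, 647.8 and 651.0 CPM in controls, overlapping groups that did not pass the test (edgeR, adjusted p = 0.303); without control replicate 1 it was called higher (log2 0.18, adjusted p = 0.0308). The cytosolic signal recognition particle had 2 called higher and 1 called lower of 6 tested (median 0.05). Of the vacuolar proton pump, the membrane V0 part had 0 called higher and 5 called lower of 9 tested (median -0.54) and the cytosolic V1 part 4 called higher and 2 called lower of 9 tested (median 0.11), of which 2 were called higher by DESeq2 or without 1 h replicate 2 or 4 or control replicate 2 or 4, and 1 called lower without 1 h replicate 2 or 4 or control replicate 3 or 4. The V0 subunit Atp6v0e fell 2.25-fold, and the V1 subunit Atp6v1a rose by log2 0.61 ± 0.058. Of cholesterol synthesis, the enzymes of the ER membrane had 1 called higher and 9 called lower of 12 tested (median -0.31) and those of the cytosol and peroxisome 2 called higher and 0 called lower of 7 tested (median 0.17), or 4 called higher without control replicate 1. Lysosomal enzymes and membrane proteins had 6 called higher and 19 called lower of 30 tested (median -0.31), with 3 called higher without 1 h replicate 3.

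**Figure D4:**
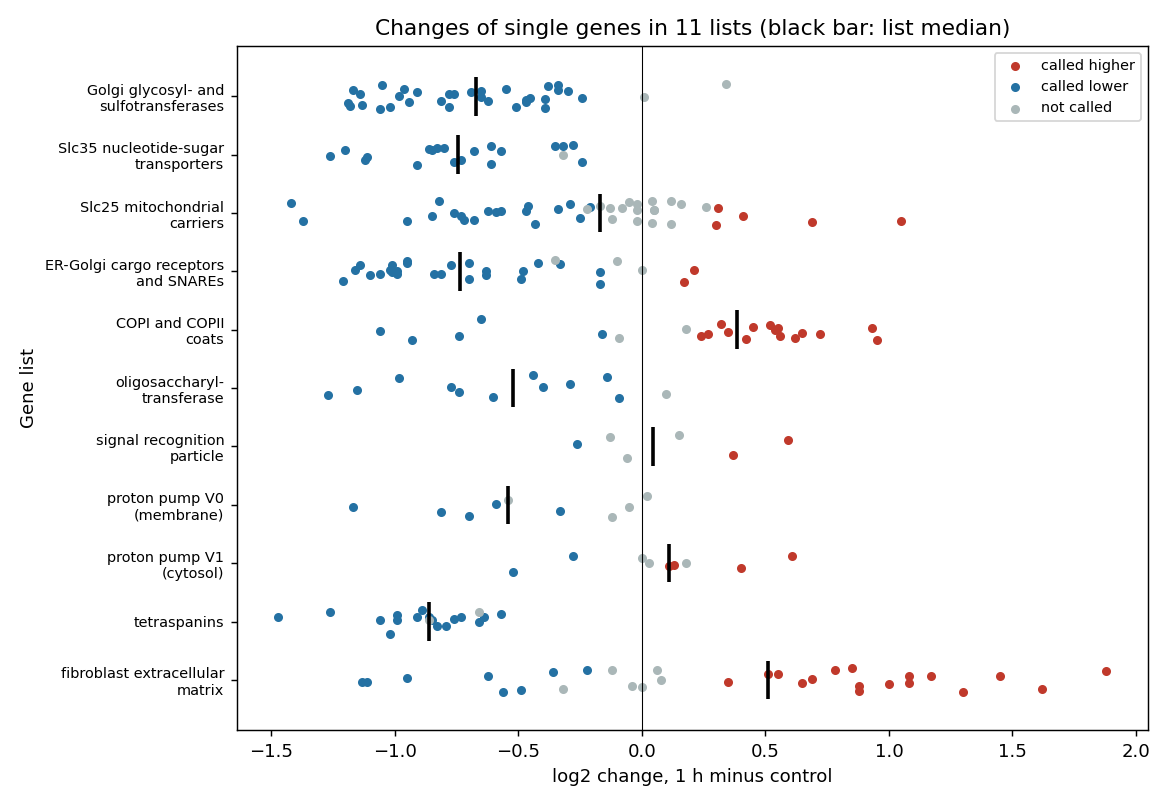
Log2 change (1 h minus control) of each tested gene in 11 lists, 1 point per gene, red where called higher, blue where called lower and grey where not called; the black bar is the list's median and vertical jitter has no meaning. The Golgi enzymes centre on -0.67 and the COPI and COPII coats on 0.38.

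Cell surface and secreted signals mostly fell as well. Growth factors and cytokines had 5 called higher and 17 called lower of 29 tested, with a median log2 change of -0.52. Cxcl12, a chemokine made by stromal cells, stood at 1418, 1445, 1449 and 1463 CPM at 1 h, against 2696, 2631, 2719 and 2692 CPM in controls (log2 -0.89 ± 0.033; edgeR, adjusted p = 3.1e-12). Igf1 fell 2.2-fold. The 5 of the list that rose were Edn1, Gdf15 (a stress cytokine), Lif, Inhba and Bmp1. Bmp1 is a metalloprotease in spite of its name and place in this list. It lost its call without 1 h replicate 1 (log2 0.30, edgeR, adjusted p = 0.0599) and had log2 0.35 with it and 0.15 after GC correction. Of the 5, Lif, a cytokine of the IL-6 family, had 131.8, 124.4, 136.8 and 124.4 CPM at 1 h and 72.5, 86.7, 81.1 and 86.1 CPM in controls. Within TGF-beta and BMP signalling, where 13 called higher and 8 called lower of 25 tested, the lower calls included receptors. Tgfbr2 stood at 252.1, 252.0, 251.6 and 259.7 CPM at 1 h, against 503.1, 482.3, 497.2 and 492.2 CPM in controls, and Bmpr1a fell 2.18-fold. Smad7, an inhibitor induced by the pathway, rose by log2 0.46 ± 0.054 (0.41 without control replicate 1 and 0.30 after GC correction), while Bambi, a decoy receptor induced by the pathway, fell by log2 -1.10 ± 0.10. Id3, a BMP target, rose by log2 1.13 ± 0.30, which was 0.93 without control replicate 1.

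Extracellular matrix genes, by contrast, were called higher more often than lower. The list had 17 called higher and 8 called lower of 31 tested, and a median log2 change of 0.51, although all of its products enter the ER. This median was 0.38 without control replicate 1 and 0.36 after GC correction. The proteins of the list are long, with a median of 1034 residues, and all genes with a stretch above 1000 residues had a median log2 change of 0.17. The part of length in the rise of this list was not tested. Fn1 (fibronectin, 2477 residues) stood at 6929, 6778, 7124 and 6727 CPM at 1 h, against 2153, 2303, 2277 and 2214 CPM in controls, a 3.08-fold rise without overlap (edgeR, adjusted p = 1.7e-14). Col3a1 stood at 171.2, 152.4, 150.7 and 137.8 CPM at 1 h, against 35.9, 47.8, 40.2 and 42.4 CPM in controls, a 3.68-fold rise (edgeR, adjusted p = 1.5e-11). Col1a1 rose by log2 1.30 ± 0.26 with 7234, 4399, 5953 and 5010 CPM at 1 h and 1304, 3209, 2415 and 2278 CPM in controls; it is GC-rich, control replicate 1 was its lowest library, and without that library the change was 1.10. The matrix genes that fell encode short proteins for the most part: Timp1, Timp2 and Timp3 (log2 -1.11 ± 0.044, -1.13 ± 0.035 and -0.95 ± 0.052), with Timp1 of 205 residues, and Sparc, a calcium-binding matrix protein of 332 residues (log2 -0.49 ± 0.034). Actin and contractile SRF targets, which are cytosolic, had 20 called higher and 1 called lower of 26 tested (median 0.3), with Actb at 4156, 3939, 4018 and 3905 CPM at 1 h and 2402, 3026, 2937 and 2911 CPM in controls.

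Known substrates of the RNase of IRE1, mRNAs cut at the ER in other settings, had 2 called higher and 6 called lower of 8 tested, with a median log2 change of -0.51. Scara3, a scavenger receptor-like membrane protein, stood at 36.7, 38.4, 40 and 34.5 CPM at 1 h, against 92.7, 90.3, 88.8 and 87.4 CPM in controls, a 2.4-fold fall (edgeR, adjusted p = 2.3e-11). Hgsnat, a lysosomal membrane enzyme, fell 2.06-fold. Bloc1s1, a short cytosolic protein and the best known substrate in mouse cells, stood at 27.1, 25.4, 25.2 and 25.5 CPM at 1 h, against 30.9, 43.8, 37.8 and 37.5 CPM in controls, a fall by log2 -0.54 ± 0.083 without overlap (edgeR, adjusted p = 3.2e-05), or -0.68 after GC correction. Pdgfrb and Col6a1 rose (log2 0.28 ± 0.068 and 0.55 ± 0.093, the second 0.41 after GC correction). All but Bloc1s1 encode secreted or membrane proteins. Genes with a hydrophobic stretch were in general called lower more often than higher, and the part of IRE1 in the falls of this list was not tested.

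Regulators of mRNA decay and of MAP kinase signalling moved in both directions. Among decay factors 11 called higher and 9 called lower of 26 tested: beside Zfp36, its relative Zfp36l1 rose 2.61-fold and Btg2, which activates deadenylation, 1.95-fold, while Tob1, of the same family as Btg2, fell by log2 -0.74 ± 0.055 (edgeR, adjusted p = 6.5e-09). Among MAP kinase feedback inhibitors 11 called higher and 6 called lower of 21 tested. Dusp1 and Dusp2, phosphatases of the same family, stood at opposite ends: Dusp2 had 16.1, 13.6, 17.3 and 16 CPM at 1 h and 40.2, 54.9, 50.7 and 51.8 CPM in controls, a 3.15-fold fall without overlap (log2 -1.65 ± 0.10; edgeR, adjusted p = 6.2e-10), with a log2 change of -1.74 without control replicate 1 and -1.92 after GC correction. Of Krüppel-like and SP factors 9 called higher and 4 called lower of 17 tested (median 0.29). Klf6 rose to 577.5, 624.1, 594.9 and 622.8 CPM at 1 h, against 243.7, 201.3, 214.1 and 217.7 CPM in controls, and Klf13 and Klf16 fell (log2 -0.71 ± 0.054 and -0.80 ± 0.075, the second -0.85 without control replicate 1 and -1.12 after GC correction). Gadd45a, a growth arrest gene, rose 4.12-fold, in a p53 target list with 6 called higher and 9 called lower of 21 tested (median -0.1).

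Several lists lay near the background. Circadian clock genes had 5 called higher and 3 called lower of 20 tested, SR proteins and CLK kinases 4 called higher and 4 called lower of 20 tested, mitochondrial ribosomal proteins 9 called higher and 10 called lower of 42 tested and NRF2 targets 6 called higher and 6 called lower of 22 tested, with medians of 0.03, 0.0, 0.02 and 0.07. The SR and CLK list had 2 called lower without 1 h replicate 3. Within these lists Ciart and Nfil3, repressors of the clock, rose by log2 0.92 ± 0.11 and 1.09 ± 0.051. Bhlhe40 and Bhlhe41, of the same clock list, fell by log2 -0.53 ± 0.044 and -0.48 ± 0.099. Of the NRF2 targets, Hmox1 (haem oxygenase) fell by log2 -0.59 ± 0.065.

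The later course of the 12 genes that rose most at 1 h differed between them. Egr2 averaged 33.9 ± 3.64 CPM at 0 h, 213.7 ± 9.39 CPM at 1 h and 0.258 ± 0.019 CPM at 16 h (SD, n = 4 each). Edn1 averaged 10.8 ± 0.935 CPM at 0 h, 46.2 ± 2.26 CPM at 1 h and 0.228 ± 0.0687 CPM at 16 h. Rgs16, Dusp1, Egr1 and Fos followed the same course, and Ier2 and Myc returned to about their level of 0 h, with 334.5 ± 43.7 CPM of Myc at 16 h and 333.1 ± 42.2 CPM at 0 h. Chac1 went on rising, with 33.1 ± 6.86 CPM at 0 h, 166.8 ± 14.9 CPM at 1 h and 378.0 ± 51 CPM at 16 h, as did Txnip and Ddit3, while Ddit4 did not differ detectably between 16 h and 1 h (log2 0.24; edgeR, adjusted p = 0.102). In polysome RNA, where 79.5% of 12065 tested genes were called at 1 h, the changes of Egr2, Edn1, Dusp1 and Txnip were log2 3.55, 1.82, 2.39 and 3.82, beside 2.65, 2.10, 2.30 and 2.76 in cytosolic RNA. Herpud1 had log2 -0.48 in polysome RNA and 1.09 in cytosolic RNA, and Ppp1r15a had 3.55 and 0.78; these differences between the RNA kinds were not tested.

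**Figure D5:**
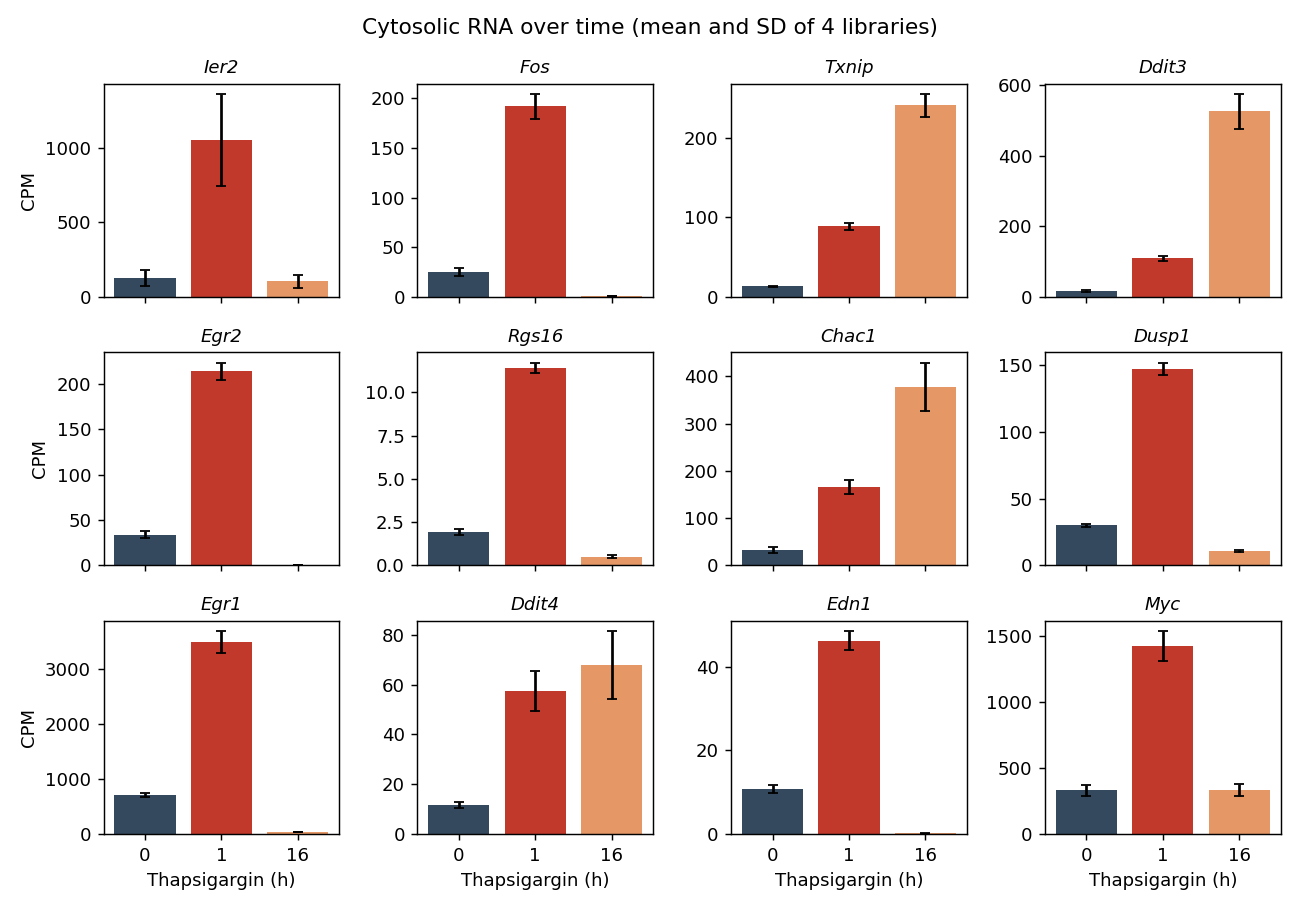
Mean CPM (bars) and SD (n = 4) in cytosolic RNA at 0, 1 and 16 h of thapsigargin for the 12 genes that rose most at 1 h, each on its own linear axis from 0. Egr2 and Edn1 are highest at 1 h, and Chac1 is highest at 16 h with 378.0 ± 51 CPM.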

How the data were processed

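Cytosolic RNA of MEFs was sequenced from TruSeq libraries, per the labels' protocols. The values deposited are whole read counts for each gene symbol, nearly all of protein-coding genes. Per the submitters' processing notes, reads were aligned to mm10 with HISAT (no version given) and DESeq2 1.9.23 was used. How reads were counted (tool, strand, annotation) is not given in the sources used here. Genes that overlap, lie antisense or are nearly identical may therefore share reads. RNAs kept in the nucleus and snoRNA host genes were not analysed here.

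Counts were fitted with edgeR 4.0.16 (R 4.3.3, limma 3.58.1) over the 16 cytosolic libraries in 4 groups, with 12 residual degrees of freedom: filterByExpr (minimum count 10, minimum total 15), TMM factors, robust quasi-likelihood, Benjamini-Hochberg over all tested genes, threshold 0.05. Polysome libraries were fitted separately. The procedure was tested on simulated data. All pairs of libraries within a group differed beyond counting noise (lowest chi-square per degree of freedom 2.29), so none was counted as a repeat. Hydropathy and length come from the longest GENCODE vM21 protein of each gene, in place of the RefSeq proteins planned; 425 tested genes had none. Class medians and list counts are descriptions without a test. Alternatives were upper-quartile scaling, DESeq2 1.42.0, no filter, the 8 libraries alone, a replicate block, each library left out, and GC-corrected offsets.

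The lists, and the members named, were chosen with earlier results of these data known. Named were the UPR regulators with Hspa5, Ddit3, Atf3 and Atp2a2; the 12 highest and 12 lowest called genes (mean at least 5 CPM, groups not overlapping, no clone-type symbols; 1 of the lowest is not reported here); per described list up to 5 called members with the smallest p and 2 uncalled with the highest CPM; and per direction the 5 most abundant genes changed at least 2-fold. The lists of Tmem, Slc25, Slc35, tetraspanin, proton pump, coat, cargo receptor, signal recognition particle and cholesterol genes, and other genes singled out within lists (such as Itpr3, Stim1, Lif, Id3, Col1a1, Timp3 and the coat GTPases), were chosen after their values were seen.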

Additional observations from a re-analysis of the deposited data

Results flagged for a closer look

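Among the genes named in the text, 12 had 1 library far from the other 3 of its group by Dixon's criterion for 4 samples, which chance meets in about 1 of 20 groups. Both groups of every named gene were examined, so a number of such libraries is met by chance. The 12 are listed as values to check and not as a result. Control replicate 1 stood apart for 5 of them. Herpud1 had 348.5 CPM there, Sec31a 192.9 CPM, Mgp 51.83 CPM, Nfatc1 17.29 CPM and Acta1 6.711 CPM. The other 7 had the far library at 1 h. Slc25a5 had 480.0 CPM in 1 h replicate 1. Sdhb had 65.05 CPM and Itpr1 104.6 CPM in 1 h replicate 2. Dad1 had 71.02 CPM and Eif2ak2 36.75 CPM in 1 h replicate 3. Stim1 had 30.37 CPM and Tgfbr2 259.7 CPM in 1 h replicate 4.

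Of the 12 genes followed to 16 h, 11 differed between the times in the test of 16 h minus 1 h itself (edgeR, Benjamini-Hochberg adjusted over all genes). The immediate early genes and signalling genes were lower at 16 h than at 1 h: Egr2 by a log2 difference of -9.67, Fos by -8.59, Edn1 by -7.64, Egr1 by -6.32, Rgs16 by -4.49, Dusp1 by -3.75, Ier2 by -3.34 and Myc by -2.09. Ddit3, Txnip and Chac1 were higher at 16 h than at 1 h, by 2.27, 1.44 and 1.18 on the log2 scale.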

How the results depend on the processing

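The numbers of genes called at 1 h kept within 1.5 times of the reported 3476 higher and 3479 lower in every alternative run: 3545 and 3482 with upper-quartile scaling, 3360 and 3384 without the low-count filter, 3298 and 3355 with the 8 libraries alone, 3383 and 3550 with DESeq2, and 4189 and 3976 with GC-corrected offsets, an alternative chosen after the data were seen. Leaving out each library in turn gave 3152 to 3497 genes higher and 3209 to 3514 lower, and 184 to 361 higher and 294 to 362 lower by at least 2-fold, against 259 and 321 with all libraries. The lowest of these 2-fold counts, 184 and 294, came without control replicate 1, and GC correction gave 186 and 317. With the replicate number as a block, 3398 were called higher and 3411 lower. The numbers do not pair the samples: deviations of same-numbered libraries at 1 h and in controls had correlations of -0.479, -0.435, 0.0567 and -0.0206 across genes, and the best partners of 1 h replicates 1 to 4 were controls 2, 1, 2 and 1.

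Medians of genes with and without a stretch, over all lengths and by length bin, stayed within 0.1 (log2) in all 48 values recomputed. Within genes over 54% GC they moved more: after GC correction from -0.11 to -0.28 with a stretch and from 0.25 to 0.08 without, and in genes up to 42% GC with a stretch from -0.38 to -0.27. Of 1862 values of named genes, 1836 kept direction and call, 5 gained a call and 21 lost one (Cd68 10 times, Sdhb 9 times, Bmp1 and Ern1 once each), and none changed sign past the threshold. The gains were Eif2ak2, Map2 and Stt3a after GC correction and Stt3a and Xbp1 without control replicate 1. Of 1092 list counts, 43 moved by more than 1.5 times, all of them counts of 9 or fewer. The GC correction took calcineurin and NFAT genes called higher to 5, SR and CLK genes called higher to 9 and clock genes called lower to 5. With the 8 libraries alone 5 mitochondrial ribosomal genes were called higher. For these the cause was not tested. Counting error weighs most on genes of a few CPM, such as Gdf15.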

Other observations

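The genes named here were chosen after their values were seen. Complex II of the respiratory chain, all of whose subunits are encoded in the nucleus, fell in its membrane anchors and rose in its catalytic flavoprotein. The parts of place and of protein length in this were not tested. Sdhd, a membrane anchor, stood at 109.1, 110.5, 110.4 and 107.6 CPM at 1 h, against 185.0, 183.7, 186.9 and 192.6 CPM in controls, and the other anchor, Sdhc, fell by log2 -0.62 ± 0.040. The catalytic flavoprotein Sdha rose by log2 0.45 ± 0.055. The iron-sulfur subunit Sdhb was called higher by log2 0.18 ± 0.072 (edgeR, adjusted p = 0.0478), a call that was lost without control replicate 1 (log2 0.10, adjusted p = 0.148) and under several other settings. In neither anchor did the groups overlap (edgeR, adjusted p = 9.5e-12 for Sdhd and 9.4e-10 for Sdhc). The whole respiratory chain list had 7 called higher and 14 called lower of 38 tested, with a median log2 change of -0.05.

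Other lists had medians above 0. Proteasome subunits had 22 called higher and 4 called lower of 31 tested (median 0.21). Factors of nonsense-mediated decay had 8 called higher and 0 called lower of 17 tested, or 1 called lower without control replicate 2. Their median was 0.34, or 0.22 after GC correction, and their median length 991 residues. The helicase Upf1 among them was at log2 0.69 ± 0.15 (0.56 without control replicate 1). Of interferon-induced genes 11 called higher and 4 called lower of 25 tested (median 0.26). Among these the transcription factors Irf1 and Stat2 rose by log2 0.88 ± 0.047 and 0.81 ± 0.063, and Bst2, a membrane protein that tethers virus particles, fell by log2 -0.69 ± 0.16. YAP and TAZ targets had 11 called higher and 5 called lower of 19 tested, or 3 called lower without 1 h replicate 3. Their median was 0.23, or 0.08 after GC correction. The secreted matrix proteins Ctgf and Cyr61 rose (log2 0.78 ± 0.053 and 0.90 ± 0.035), while Fstl1, a secreted glycoprotein, and Axl, a receptor kinase, fell (log2 -0.74 ± 0.055 and -0.45 ± 0.040).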
